A study of Mus musculus with 12 samples.

Results

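A set of 10 genes of the MHC class II pathway was followed in splenic B cells of mice that had received a CpG oligodeoxynucleotide, the drug IM156, both or neither. They encode the classical class II chains (H2-Aa, H2-Ab1, H2-Eb1), the invariant chain (Cd74), the peptide editor DM (H2-DMa, H2-DMb1, H2-DMb2), its inhibitor DO (H2-Oa, H2-Ob) and the class II transactivator (Ciita). They were chosen by gene symbol and are 10 of the 23282 rows of the count table. All 10 passed the filter on low counts and so are among the 11857 genes tested.

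B cells present peptides to CD4 T cells on class II molecules, heterodimers of an alpha and a beta chain. The invariant chain fills the groove of a new heterodimer and guides it to endosomes, where proteases trim the chain to a stub called CLIP. DM then exchanges CLIP for peptides, and DO, which B cells make in quantity, binds and restrains DM. Transcription of the classical class II, invariant chain and DM genes depends on the protein CIITA. This coactivator does not bind DNA itself but docks on the factors RFX, CREB and NF-Y at the promoters of those genes.

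The 4 groups of 3 libraries were ODN+IM156, ODN, IM156 and control. ODN mice received 50 µg of the class B oligonucleotide CpG-ODN 1826, a ligand of the endosomal receptor TLR9, into the peritoneum on days 1 and 3. IM156 mice received 30 mg/kg of IM156, which the study's title calls an inhibitor of oxidative phosphorylation, by the same route on days 0 and 2. ODN+IM156 mice received both on these days, and control mice no treatment. All mice were 7 weeks old, and spleens were taken on day 4. The sample labels call them wild-type C57BL/6 whereas the series design calls them lupus-prone, and the labels give neither a vehicle for the controls nor the animals behind each library.

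Libraries held 9650775 to 11532525 counts, and the 10 genes together took 1.87% to 2.44% of a library. B-cell markers were high throughout: 11 of the 12 listed were in the table, and their summed level was 9984 to 10655 CPM in ODN+IM156 libraries, 9289.7 to 10693 CPM in ODN libraries, 10502 to 10712 CPM in IM156 libraries and 10201 to 11296 CPM in controls. CPM here means counts per 1000000 of the scaled library. Markers of dendritic cells and macrophages were low, but some rose with ODN. Dendritic-cell markers, 11 of 11 in the table, summed to 71.9 to 109 CPM in ODN+IM156 libraries, 65.8 to 71.6 CPM in ODN libraries, 47.3 to 63.6 CPM in IM156 libraries and 50.2 to 72.3 CPM in controls. Monocyte and macrophage markers, 12 of 12 in the table, summed to 73.2 to 127 CPM in ODN+IM156 libraries, 51.5 to 94.7 CPM in ODN libraries, 45.2 to 81.5 CPM in IM156 libraries and 40.7 to 79.0 CPM in controls. None of these markers was at 0 in a whole group except Clec10a, a dendritic-cell lectin, in IM156. Of 9 dendritic-cell markers tested, Itgax (1.23 on the log2 scale, adjusted p = 0.00117, edgeR) rose for ODN against control. Itgax and Xcr1 (2.12, adjusted p = 0.0015, edgeR) rose for ODN+IM156 against IM156. Negative changes, with 0 called, were seen for 3 of the 9 in the first comparison and 2 in the second. Of 12 monocyte and macrophage markers, 3, among them C1qb (1.61, adjusted p = 0.0123, edgeR), rose for ODN against control and 0 for ODN+IM156 against IM156. Platelet genes summed to 106 to 149.6 CPM in ODN+IM156 libraries, 111 to 192 CPM in ODN libraries, 45.8 to 46.2 CPM in IM156 libraries and 28.3 to 43.2 CPM in controls; 5 of 6 rose for ODN+IM156 against IM156 (median log2 fold change of the list 1.59) and 6 of 6 for ODN against control (2.13). Of the natural killer list, 2 of 6 genes in the table were tested, Gzma and Nkg7. They passed the filter only through libraries with ODN (Gzma counts per group: 78 in ODN+IM156, 232 in ODN, 10 in IM156, 4 in control). Their calls, both for ODN+IM156 against IM156 and Gzma for ODN against control, are therefore no support. Of the neutrophil list, 2 of 6 were tested, S100a8 and S100a9, and both rose in each comparison. Of 4 tested erythroid genes, 2 fell for ODN+IM156 against IM156 and 3 for ODN against control. Among all genes, 1.74% and 7.34% were called higher and 0.734% and 3.25% lower in these comparisons. T-cell markers, 6 of 8 in the table, summed to 9.72 to 15.8 CPM in ODN+IM156 libraries and 6.82 to 9.18 CPM in IM156 libraries. In ODN libraries the sum was 6.67 to 12.4 CPM, and in controls 5.86 to 7.26 CPM. Of 3 tested, 0 were called in either comparison. Cd8a alone was called higher for their mean change, beside 8.09% of all genes, while 2 of the 3 were negative. Plasma-cell markers had 0 calls among 5 tested in either comparison. The part of other cells in the changes with ODN described below (H2-Oa, class I genes, Ifi30, Irf8 and others) was not tested, dendritic cells and macrophages also make class II molecules, and fewer cells of a type cannot be told apart from less RNA per cell. ODN replicate 2 stood apart with 1.46% of its counts on the ribosomal RNA row Rn45s, against 4.78% to 9.63% in the other 11 libraries. ODN replicate 3 held 1 count of Xist, a transcript made by female cells, while the other libraries had 923.9 to 1319.7 CPM.

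The promoters were looked at for a feature that some of these genes share apart from their names. RefSeq promoter sequences (GRCm38.p6, from 250 bases before the start) were given for 7 of the 10 genes. The stretches printed here hold the X-box core AAC and the Y box TGATTGG, in capitals, the letters around which RFX and NF-Y are known to bind class II promoters.
H2-Aa, chr17:34287862-34287910, minus strand: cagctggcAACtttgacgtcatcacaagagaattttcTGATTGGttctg
H2-Eb1, chr17:34305770-34305817, plus strand: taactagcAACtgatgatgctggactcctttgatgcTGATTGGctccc
H2-DMb1, chr17:34153091-34153139, plus strand: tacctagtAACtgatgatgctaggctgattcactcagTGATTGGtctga
H2-DMb2, chr17:34145120-34145168, plus strand: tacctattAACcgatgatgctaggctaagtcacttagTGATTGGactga
H2-Oa, chr17:34092297-34092345, plus strand: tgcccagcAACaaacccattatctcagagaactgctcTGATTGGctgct
H2-Ob, chr17:34238812-34238857, plus strand: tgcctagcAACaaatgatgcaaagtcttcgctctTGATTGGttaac

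The order AAC, then 22 to 26 bases of any kind, then TGATTGG, searched on both strands, was found in 6 of these 7 promoters and in 146 of the 27025 promoters of the table (0.54%). TGATTGG alone was found in 8.38% of all promoters. The letters and the gap were settled after looking at these promoters, so the shares are a description. H2-DMa was the one without the pair in its window, where it had the shorter ATTGG, found in 37.5% of all promoters. In the GENCODE annotation of the same build, the class II, DM and DO genes lie together at chr17:34092340-34316674, whereas Cd74 lies at chr18:60803848-60812652 and Ciita at chr16:10480059-10528418.

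The classical chains were abundant in every group and no treatment moved them past the test. H2-Aa, the alpha chain of I-A, gave 7735, 8351 and 8102 CPM in ODN+IM156, 8215, 10766 and 9047 in ODN, 8755, 9181 and 9661 in IM156, and 9029.5, 8999 and 8017 in control. The 3 ODN+IM156 libraries lay below all IM156 libraries, and ODN overlapped control. The log2 fold change was 0.11 for ODN against control (SE 0.096, adjusted p = 0.531) and -0.19 for ODN+IM156 against IM156 (SE 0.096, adjusted p = 0.388), by edgeR's quasi-likelihood test adjusted over all genes tested. H2-Ab1, the beta chain of I-A, gave 3402, 3028 and 3437 CPM in ODN+IM156, 2954, 3340.4 and 3328 in ODN, 3544, 3536 and 3504 in IM156, and 3695, 3380.5 and 3442 in control. Each ODN-bearing group lay below its counterpart without overlap, by small amounts: -0.13 for ODN against control (SE 0.084, adjusted p = 0.360) and -0.10 for ODN+IM156 against IM156 (SE 0.084, adjusted p = 0.657).

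H2-Eb1, the beta chain of I-E, averaged 4654 ± 267 CPM in ODN+IM156, 4637 ± 246 in ODN, 4369 ± 118 in IM156 and 4482 ± 500.4 in control (SD, n = 3 each). Its highest and its lowest library, 5059.8 and 4185 CPM, were both controls. Its partner was nearly silent. The row for the I-E alpha chain, listed as H2-Ea-ps, stayed between 0 and 1.63 CPM in every library, and C57BL/6 mice are known to carry a deletion in the promoter of this gene. Cd74 averaged 3102 ± 96.0 CPM in ODN+IM156, 3146 ± 193 in ODN, 3319 ± 127 in IM156 and 3278 ± 376 in control (SD, n = 3 each). Control replicate 1, at 3710.4 CPM, was its highest library and ODN replicate 1, at 2931 CPM, its lowest. The log2 fold changes for ODN+IM156 against IM156 and for ODN against control were 0.091 and 0.049 for H2-Eb1 (adjusted p = 0.718 and 0.778) and -0.097 and -0.059 for Cd74 (adjusted p = 0.695 and 0.730), by edgeR.

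**Figure D1:**
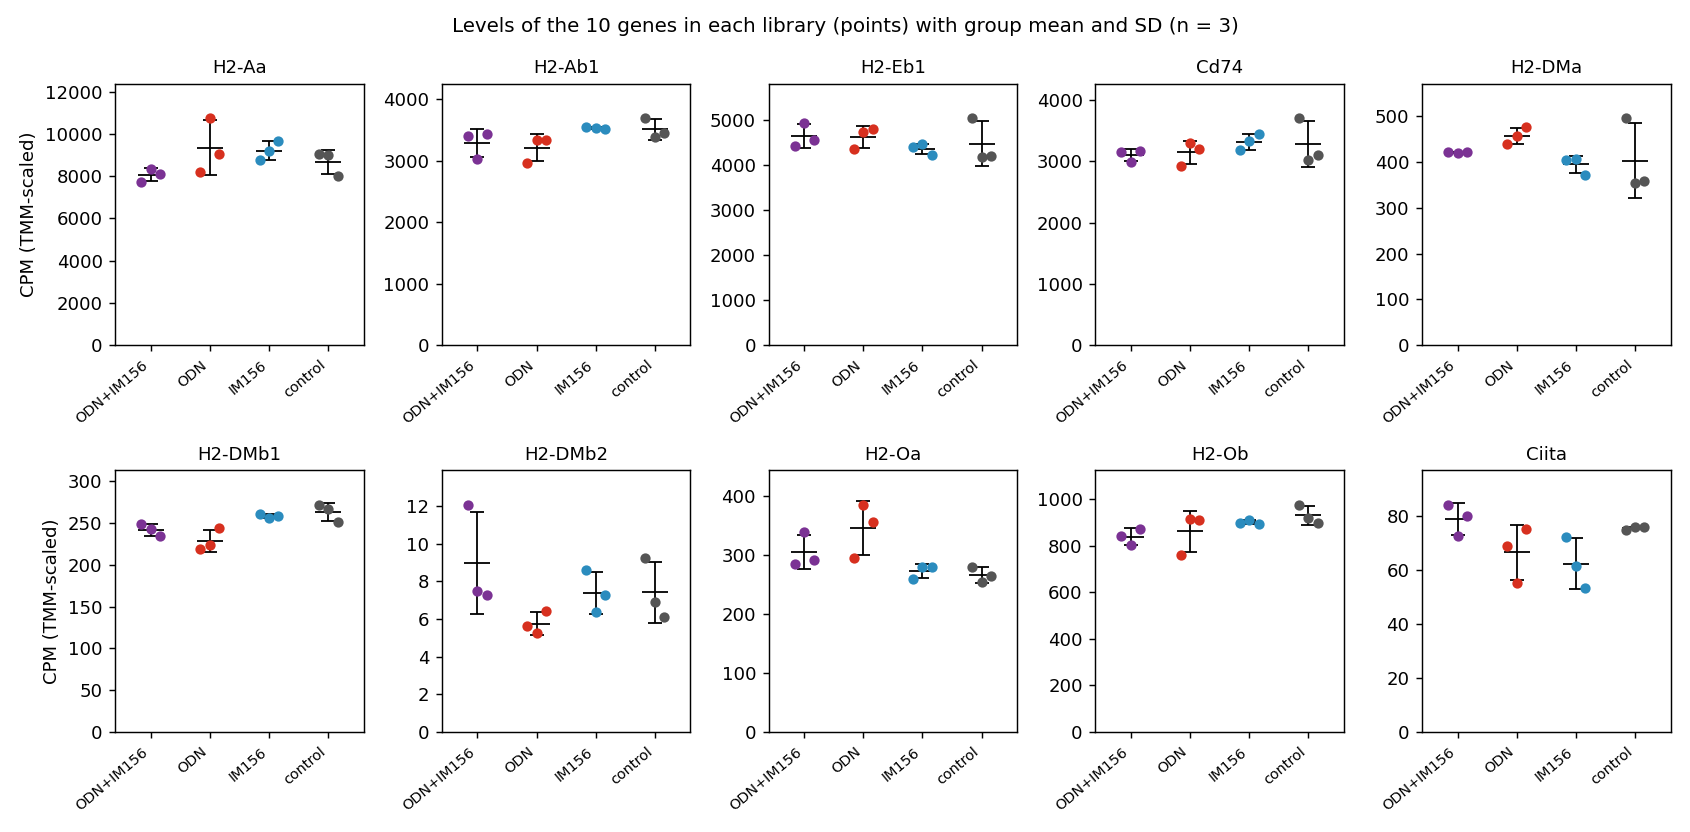
Level of each of the 10 genes in CPM (vertical axis from 0, own scale per panel) in ODN+IM156, ODN, IM156 and control; points are libraries, bars the mean and SD of 3. H2-Oa is the gene in which the 3 ODN libraries, at 296 to 386 CPM, and the 3 controls, at 255 to 281 CPM, differ past the test.

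The main DM chains had changes of opposite sign with ODN, neither past the test. H2-DMa, the alpha chain, gave 421, 420.3 and 422 CPM in ODN+IM156, 440.4, 456 and 476 in ODN, 404, 407 and 373 in IM156, and 497, 354 and 359 in control. Control replicate 1 stood above every other library of the gene, while the other 2 controls were the lowest of all 12. The log2 fold change for ODN against control was 0.18 (SE 0.107, adjusted p = 0.306, edgeR); without control replicate 1 the gene was called, at 0.36 (adjusted p = 0.0128, edgeR). H2-DMb1, the main beta chain, gave 248, 243 and 234 CPM in ODN+IM156, 219, 223 and 244 in ODN, 260.4, 257 and 258 in IM156, and 272, 267 and 251 in control. All 6 libraries with ODN lay below all 6 without it. The share of all tested genes that separate these libraries so was not counted, here or for H2-Oa and March1 below. The differences were small and missed the threshold, at -0.20 for ODN against control (SE 0.078, unadjusted p = 0.0174, adjusted p = 0.106, edgeR) and -0.15 for the average ODN effect (SE 0.055, adjusted p = 0.0853, edgeR). The average ODN effect is the mean of the log2 changes of ODN against control and of ODN+IM156 against IM156. H2-DMb1 passed for ODN against control with DESeq2 (adjusted p = 0.0412), with library totals as the only scaling (adjusted p = 0.0353, edgeR) and without ODN replicate 3 (adjusted p = 0.0434, edgeR).

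H2-DMb1 was also the steadiest of the 10, with a within-group SD of 0.0557 on the log2 scale. The median over all tested genes was 0.190, and 0.118 over the 2795 tested genes at least as abundant as Ciita. H2-DMb2, another beta chain gene lying next to it, was rare: 12.1, 7.50 and 7.27 CPM in ODN+IM156, 5.62, 5.24 and 6.41 in ODN, 8.58, 6.36 and 7.25 in IM156, and 9.24, 6.90 and 6.10 in control. Its counts were 54 to 128 per library, or 2.29% to 4.64% of all DM beta chain counts. ODN+IM156 exceeded ODN without overlap (log2 fold change 0.64, SE 0.25, unadjusted p = 0.0198, adjusted p = 0.208, edgeR). The spliced transcripts of both beta chain genes are 94.4% identical over their aligned length, but 70.9% over their last 300 bases, where 3′ libraries read, with a longest shared run of 23 bases.

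H2-Oa, the alpha chain of DO, was the member called with ODN. It gave 285, 339 and 293 CPM in ODN+IM156, 296, 386 and 357 in ODN, 259, 281 and 280.1 in IM156, and 281, 255 and 265 in control. Every library with ODN exceeded every library without it. ODN against control gave a log2 fold change of 0.38 (SE 0.099, adjusted p = 0.0182), ODN+IM156 against IM156 0.16 (SE 0.099, adjusted p = 0.505) and the average ODN effect 0.27 (SE 0.070, adjusted p = 0.0151), all by edgeR. The call for ODN against control was lost without control replicate 2 (adjusted p = 0.0766), control replicate 3 (adjusted p = 0.0613) or ODN replicate 2 (adjusted p = 0.0901), with a fit to these 6 libraries alone (adjusted p = 0.0877) and with library totals as the only scaling (adjusted p = 0.0661), all by edgeR. The average ODN effect lost its call without ODN+IM156 replicate 2 (0.23, adjusted p = 0.0573, edgeR) and with library totals (0.22, adjusted p = 0.0653, edgeR).

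A gene on the opposite strand shares sequence with H2-Oa. In the GENCODE annotation (GRCm38), H2-Oa spans chr17:34092340-34095234 on the plus strand, and exons of the antisense gene BC051537 cover chr17:34095003-34095234, the 232 bases at its 3′ end, and 89 bases further upstream. BC051537 was counted at 28.6% to 35.04% of the H2-Oa count in all 12 libraries, with a median of 33.1%. The log2 fold change of BC051537 was 0.37 for ODN against control (SE 0.117, adjusted p = 0.0487) and 0.34 for the average ODN effect (SE 0.083, adjusted p = 0.0102), by edgeR. No strand rule of the counting is stated, so reads from this stretch cannot be told apart between the 2 genes. Across the 12 libraries their log2 CPM values correlated with Pearson's r = 0.940 and Spearman's rho = 0.902, as a description, since they share libraries and depth and may share reads.

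**Figure D2:**
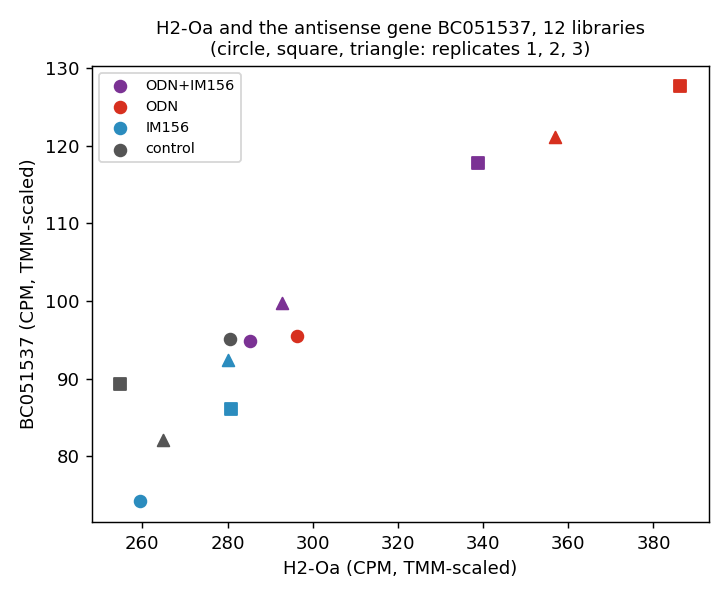
Each point is a library, with H2-Oa on the horizontal and the antisense gene BC051537 on the vertical axis, both in CPM, coloured by group. The genes kept close to a fixed proportion, 28.6% to 35.04%, and the 6 libraries with ODN lie to the right of the 6 without it.

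H2-Ob, the beta chain of DO, was not called in any comparison. It gave 841, 802 and 872 CPM in ODN+IM156, 761, 916 and 909 in ODN, 895, 911 and 894 in IM156, and 976, 917 and 895 in control. All ODN+IM156 libraries lay below all IM156 and all control libraries, but ODN overlapped control. The log2 fold change was -0.11 for ODN against control (SE 0.087, adjusted p = 0.466) and -0.10 for ODN+IM156 against IM156 (SE 0.087, adjusted p = 0.662), by edgeR.

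Since DO acts by binding DM, their summed counts were set against each other within each library. The log2 ratio of DM to DO counts averaged -0.77 ± 0.044 in ODN+IM156, -0.80 ± 0.13 in ODN, -0.83 ± 0.050 in IM156 and -0.83 ± 0.12 in control (SD, n = 3 each). None of the 6 comparisons separated the groups, and the 6 libraries with ODN differed from the 6 without by 0.049 (exact two-sided permutation test, p = 0.346, adjusted over the 6 comparisons 0.8). ODN against control differed by 0.036 (exact permutation p = 0.8); 3 libraries against 3 cannot reach below 0.1. With the alpha chains alone, H2-DMa over H2-Oa, the signs turned, to -0.12 between libraries with and without ODN and to -0.17 for ODN against control (exact permutation p = 0.203 and 0.4).

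The ratio of alpha to beta chain within each heterodimer was added after the values had been seen, in 18 tests. H2-Oa over H2-Ob, as a log2 ratio of counts, was -1.56, -1.24 and -1.57 in ODN+IM156, -1.36, -1.25 and -1.35 in ODN, -1.79, -1.70 and -1.67 in IM156, and -1.80, -1.85 and -1.76 in control. All 6 libraries with ODN exceeded all 6 without it, by 0.37 on average (exact two-sided permutation test, p = 0.0021645, the smallest that 6 against 6 allows; adjusted over 18 tests 0.0390). Leaving out any library kept the difference between 0.34 and 0.41. The shared stretch with BC051537 bears on this ratio as on H2-Oa itself. H2-Oa alone had already been seen to separate these libraries, so this p-value restates that difference and is no further support. The adjustment over 18 tests does not cover that choice. H2-DMa over H2-DMb1 was 0.76 to 0.85 in ODN+IM156 libraries, 0.96 to 1.03 in ODN libraries, 0.53 to 0.67 in IM156 libraries and 0.41 to 0.87 in controls, a difference of 0.30 with ODN (exact permutation p = 0.00866, adjusted 0.0779). H2-Aa over H2-Ab1 differed by 0.071 (exact permutation p = 0.433, adjusted 0.519).

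**Figure D3:**
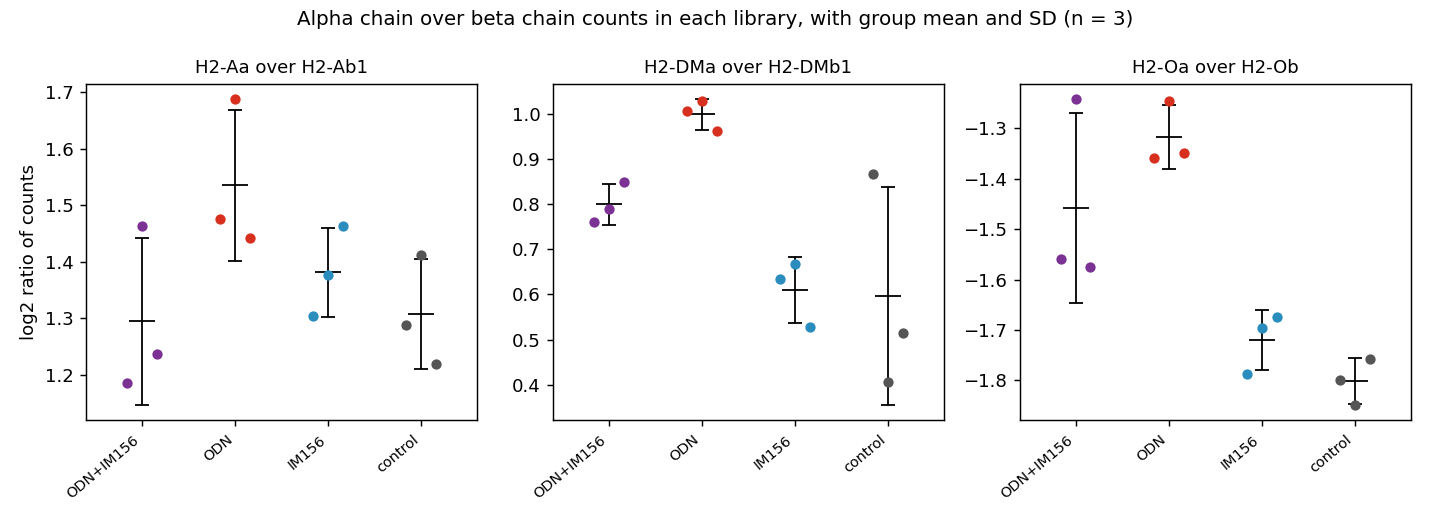
Log2 ratio of alpha to beta chain counts (vertical axis, own scale per panel) of I-A, DM and DO in ODN+IM156, ODN, IM156 and control; points are libraries, bars the mean and SD of 3. In the right panel the 6 libraries with ODN lie between -1.57 and -1.24, above the 6 without at -1.85 to -1.67.

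Ciita was the rarest member after H2-DMb2 and the one member whose IM156 and control libraries did not overlap. It gave 84.3, 72.6 and 80.2 CPM in ODN+IM156, 69.1, 55.2 and 75.4 in ODN, 72.2, 61.6 and 53.6 in IM156, and 75.0, 75.9 and 75.9 in control. Each of the 3 ODN+IM156 libraries exceeded every IM156 library, and every IM156 library lay below every control. The log2 fold change was 0.34 for ODN+IM156 against IM156 (SE 0.12, unadjusted p = 0.0103, adjusted p = 0.160), -0.28 for IM156 against control (SE 0.12, unadjusted p = 0.0324, adjusted p = 0.999) and -0.19 for ODN against control (SE 0.12, adjusted p = 0.353), by edgeR. The interaction, which is the IM156 effect in ODN-treated mice less that in mice without ODN, was 0.53 (SE 0.17, 95% interval 0.17 to 0.88, unadjusted p = 0.00579, adjusted p = 0.216, edgeR), so no change of Ciita passed the test over all genes. In a fit to their 6 libraries alone, ODN+IM156 against IM156 passed (0.35, adjusted p = 0.0357, edgeR). Without ODN replicate 3 the interaction was 0.64 (adjusted p = 0.0507, edgeR) and without ODN replicate 2 it was 0.41 (adjusted p = 0.392, edgeR). Dexi, which runs towards Ciita from the other side and shares 858 bases at the 3′ ends in RefSeq, was counted at 51.9% to 84.9% of the Ciita count and gave log2 fold changes of 0.10 for ODN+IM156 against IM156 (adjusted p = 0.729) and -0.046 for the interaction (adjusted p = 0.944), by edgeR.

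Over the 10 genes, edgeR called 1 for ODN against control, H2-Oa, beside 10.6% of all tested genes. ODN+IM156 against IM156 had 0 calls, beside 2.47%; 1 member had an unadjusted p under 0.05, beside 14.4% of all genes, and DESeq2 called 0. ODN+IM156 against ODN had 0 calls, beside 0.0675%; 2 members had an unadjusted p under 0.05, beside 16.2%, and DESeq2 called 0. ODN+IM156 against control had 0 calls, beside 1.59%; 0 members had an unadjusted p under 0.05, beside 12.9%, and DESeq2 called 0. IM156 against control had 0 calls among members and 0% among all genes, where 3.7% had an unadjusted p under 0.05, Ciita among them, and DESeq2 called 0 members. The interaction called 0 members and 0% of all genes (98 genes higher and 162 lower without ODN replicate 3, 37 and 151 with DESeq2), with Ciita and H2-Aa at an unadjusted p under 0.05 beside 12.3% of all genes, and DESeq2 called 0 members. The average ODN effect called H2-Oa beside 12.2% of all genes. A share of 1 in 10 genes is near the background for ODN. Over all genes, ODN against control had 870 calls higher and 385 lower, and with library totals as the only scaling 695 higher and 720 lower; the average ODN effect had 959 higher and 485 lower, and with library totals 792 higher and 888 lower. ODN+IM156 against ODN had 6 higher and 2 lower, and with library totals 10 higher and 1 lower. Library totals left 1 member called with ODN, H2-DMb1 in place of H2-Oa.

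The median log2 fold change of the 10 genes was -0.08 for ODN against control, where all tested genes had a median of -0.0049, and -0.0020 for ODN+IM156 against IM156, where all had -0.0033. With H2-DMb2 left aside for its few counts, the 95% intervals of the other 9 genes all lay within -0.44 to 0.59 on the log2 scale for ODN against control and within -0.39 to 0.59 for ODN+IM156 against IM156. Groups without overlap were found for 3 members for ODN against control, beside 24.4% of all genes. There were 8 such members for ODN+IM156 against IM156, beside 24.6%: H2-Aa, H2-Ab1, Cd74, H2-DMb1 and H2-Ob were lower in ODN+IM156 and H2-DMa, H2-Oa and Ciita higher, none past the test. It was 2 members for ODN+IM156 against ODN (19.1% of all genes), 3 for ODN+IM156 against control (19.3%) and 1, Ciita, for IM156 against control (10.4%).

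The class I route, which presents peptides from the cytosol to CD8 T cells under the transactivator NLRC5, was set beside these genes with a list of 10. It had 7 genes called higher for ODN+IM156 against IM156 and 5 for ODN against control, with 0 lower in both. All genes together had 1.74% and 7.34% called higher. H2-K1, a class I heavy chain, averaged 3685 ± 104 CPM in ODN+IM156, 3490.3 ± 75.8 in ODN, 2087 ± 70.9 in IM156 and 2305 ± 90.2 in control (SD, n = 3 each). Its log2 fold change was 0.82 for ODN+IM156 against IM156 (SE 0.078, adjusted p = 2.96e-06) and 0.60 for ODN against control (SE 0.077, adjusted p = 7.8e-05), by edgeR. Psmb9, an immunoproteasome subunit, rose by 0.81 and 0.88 on the log2 scale in these comparisons, and the peptide transporter subunit Tap1 by 0.98 and 0.63, all past the test. Nlrc5 itself rose by 1.09 for ODN+IM156 against IM156 (SE 0.129, adjusted p = 3.57e-05, edgeR) and by 0.47 for ODN against control (SE 0.129, adjusted p = 0.0234, edgeR), the second of which was lost without control replicate 2 or 3 or ODN replicate 2 or 3, in a fit to the compared groups alone and with library totals as the only scaling (adjusted p at most 0.101 over all settings, edgeR). H2-D1, B2m and Psmb8 were the other class I genes called for ODN+IM156 against IM156, and B2m for ODN against control. The average ODN effect called these and Tap2 and Psmb10 as well, 9 of the 10. Psmb10 lost that call in 6 of 19 alternatives and Tap2 in 4 (adjusted p at most 0.0821 and 0.0641, edgeR). Without IM156 replicate 2 or 3 or ODN+IM156 replicate 1 or 3, 4 class I genes were called for ODN+IM156 against IM156 in place of 7. In this comparison B2m and Psmb8 lost their calls without any 1 of the compared libraries and with library totals as the only scaling. Psmb8 lost its call with the replicate block too. H2-K1, Tap1, Psmb9 and Nlrc5 kept theirs in every setting. The median log2 fold change of the list was 0.46 for ODN+IM156 against IM156 and 0.37 for ODN against control.

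**Figure D4:**
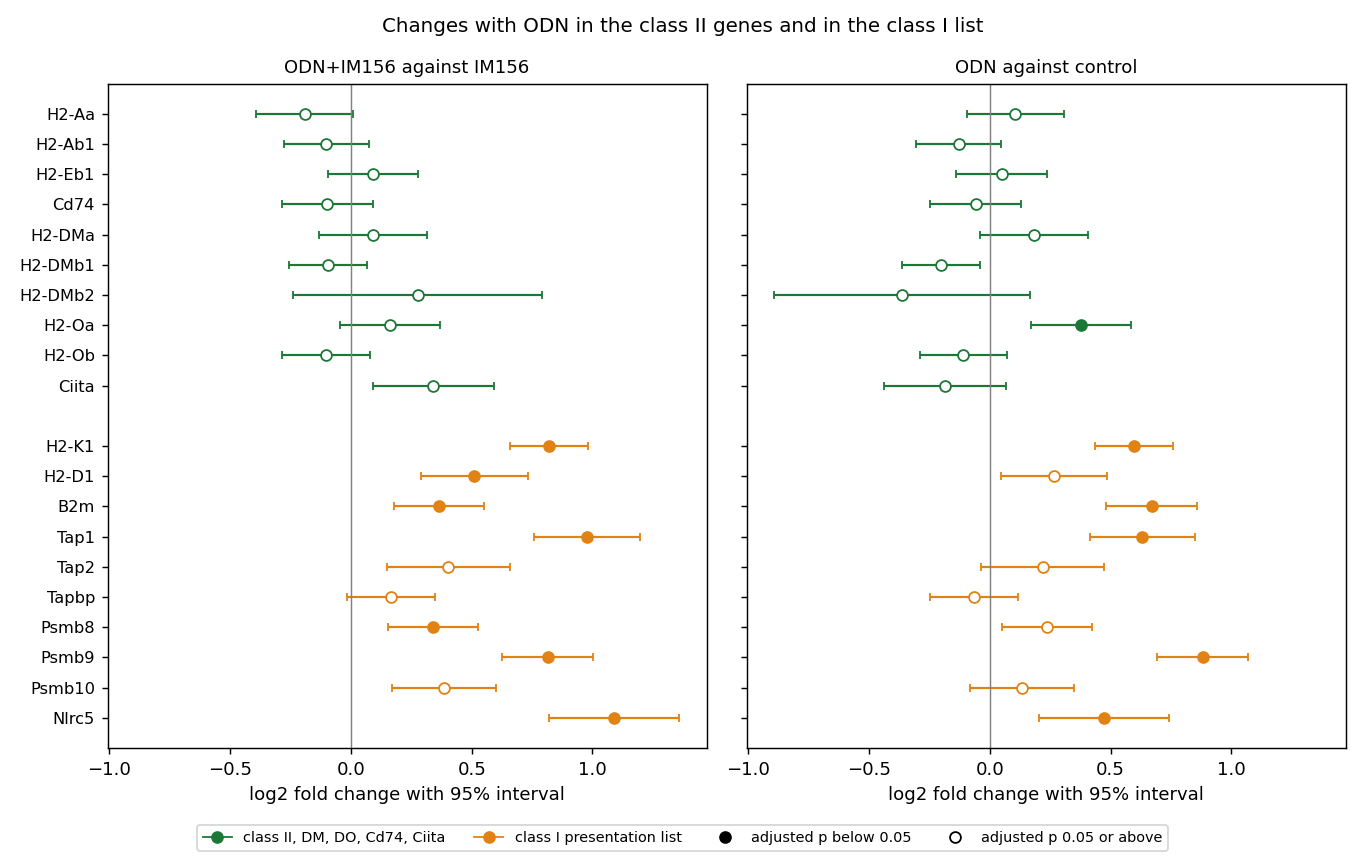
Log2 fold change with 95% interval (horizontal axis) of the 10 class II pathway genes (green) and the 10 class I genes (orange) for ODN+IM156 against IM156 on the left and ODN against control on the right; filled points passed an adjusted p of 0.05. The class II pathway genes lie on both sides of 0 with 1 filled point, H2-Oa on the right, while 7 class I genes on the left and 5 on the right are filled, all above 0.

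Among 14 factors known to act on the Ciita gene, 4 were called for ODN+IM156 against IM156, all higher, beside 2.47% of all genes, and 2 for ODN against control, 1 higher and 1 lower, beside 10.6%. Those that rose for ODN+IM156 against IM156 included Irf1 (log2 fold change 1.04, adjusted p = 0.00172), an interferon-response factor, Irf8 (0.46, adjusted p = 0.0044), a B-cell and myeloid factor, and Socs1 (1.55, adjusted p = 0.00658), an inhibitor of cytokine signalling, all by edgeR. Irf1 gave 579, 475 and 497 CPM in ODN+IM156, 251, 317 and 522 in ODN, 221, 248 and 284 in IM156, and 283, 268 and 267 in control. The 3 ODN+IM156 libraries lay above all IM156 libraries, and ODN overlapped control; with a robust estimate of the spread Irf1 had an adjusted p of 0.0598 (edgeR). For ODN against control Irf8 rose (0.36, adjusted p = 0.00767; 0.0802 in a fit to the compared groups alone) and Ets1, a lymphocyte factor, fell (-0.33, adjusted p = 0.0451), by edgeR. The call of Ets1 was lost without any of control replicates 1, 2 and 3 or ODN replicates 1 and 2, with the replicate block and in a fit to the compared groups alone (adjusted p at most 0.178 over all settings, edgeR). Irf4, another factor of B cells, was lower for the average ODN effect (-0.27, adjusted p = 0.0226, edgeR), a call lost without control replicate 3, IM156 replicate 2 or 3 or ODN+IM156 replicate 2 or 3 (adjusted p at most 0.0656 over all settings, edgeR).

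The proteins on which CIITA docks, and its chromatin partners, gave 0 calls among 12 genes in all 7 comparisons with edgeR. The average ODN effect was negative for 9 of them and positive for 3, with a median of -0.054. For ODN against control 10 were negative and 2 positive, whereas for ODN+IM156 against IM156 4 were negative and 8 positive, with a median of 0.039. The values that came nearest to the threshold were both positive. Rfx5, a subunit of RFX, averaged 131 ± 8.80 CPM in ODN+IM156, 122 ± 11.5 in ODN, 110.3 ± 5.54 in IM156 and 113 ± 7.41 in control (SD, n = 3 each), with an average ODN effect of 0.18 (SE 0.065, adjusted p = 0.0801, edgeR). Kat2b, an acetyltransferase, had an average ODN effect of 0.28 (SE 0.092, adjusted p = 0.0551, edgeR). H2-Eb2, Btnl2, BC051142 and H2-Ea-ps, further genes of the class II region, gave 0 calls among 4 in these comparisons.

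Among 14 genes of endosomal processing, 3 rose for ODN against control, where 7.34% of all genes were called higher. Ifi30, the thiol reductase GILT that opens disulfide bonds of antigens, gave 654, 631 and 696 CPM in ODN+IM156, 619.8, 845 and 667 in ODN, 492, 496 and 459 in IM156, and 519.7, 408 and 457 in control. It rose by 0.62 for ODN against control (SE 0.11, adjusted p = 0.0011, edgeR), with no overlap. For ODN+IM156 against IM156 its value was 0.45 (adjusted p = 0.0324, edgeR), and leaving out any of those 6 libraries ended the call (adjusted p at most 0.168 over all settings). Ctsh, a cysteine protease, rose by 0.43 (adjusted p = 0.0069, edgeR) and Lamp2, a lysosomal membrane protein, by 0.39 (adjusted p = 0.0185, edgeR) for ODN against control. In a fit to the compared groups alone neither was called (adjusted p = 0.0630 for Ctsh). Lamp2 was not called without control replicate 1 or 3 or ODN replicate 1 either (adjusted p at most 0.112 over all settings, edgeR), and without ODN replicate 3 the list had 6 calls in place of 3. Ctsd, an aspartic protease, was called for the average ODN effect (0.28, adjusted p = 0.0411, edgeR), a call lost in 12 of 19 alternatives. Ctss, the cathepsin known to trim the invariant chain in B cells, was not called in any comparison.

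Of 9 tested genes of class II ubiquitylation and trafficking, 1 was called higher for the average ODN effect, Cd83, beside 8.09% of all genes. Called lower were 2, March1 and Cd63, beside 4.09%. ODN against control called Cd83 alone, and ODN+IM156 against IM156 called March1 alone. That call of March1 was lost without any 1 of the compared libraries and with the replicate block. MARCH1 is the ligase that tags class II molecules for degradation, and CD83 is known to counter it. Cd83 gave 254, 289 and 253 CPM in ODN+IM156, 375, 409 and 284 in ODN, 241, 241 and 238 in IM156, and 252, 219.8 and 207 in control, and rose by 0.65 for ODN against control (SE 0.113, adjusted p = 0.0010, edgeR). March1 gave 206, 222 and 222 CPM in ODN+IM156, 219, 216 and 234 in ODN, 289, 273 and 256 in IM156, and 250.1, 293 and 248 in control. Every library with ODN lay below every library without it, and the average ODN effect was -0.29 (SE 0.061, adjusted p = 0.00355, edgeR). Cd63, a tetraspanin of late endosomes, was lower as well, at 4.72 ± 0.914 CPM in ODN+IM156, 4.00 ± 0.670 in ODN, 7.56 ± 0.967 in IM156 and 7.24 ± 2.16 in control (SD, n = 3 each; average ODN effect -0.77, adjusted p = 0.0115, edgeR). Among costimulators and partners of the invariant chain, the chemokine receptor gene Cxcr4 fell by 0.82 for the average ODN effect (SE 0.175, adjusted p = 0.00359, edgeR; 0.0776 with a robust estimate of the spread) and Cd80, Cd86 and Cd40 were not called.

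After subtraction of group means, all 28 pairs among the 8 members other than Ciita and H2-DMb2 correlated positively across the 12 libraries, with r between 0.16 and 0.89; without that subtraction 20 were positive and 8 negative. Over all libraries, log2 CPM of H2-Ab1 correlated with that of H2-Ob at r = 0.873 and of H2-Eb1 with H2-DMa at r = 0.843, and within groups at 0.894 and 0.869. H2-Aa and Ciita ran in opposite directions, at r = -0.809 and -0.731 within groups. H2-Oa and H2-Ob had r = -0.135 over all libraries and 0.576 within groups. These are descriptions over libraries that share scaling and depth. Control replicate 1 was the highest library for H2-Ab1, H2-Eb1, Cd74, H2-DMa, H2-DMb1 and H2-Ob. ODN replicate 1 was the lowest for H2-Ab1, Cd74, H2-DMb1 and H2-Ob, and the weight of these libraries in the correlations was not tested. Among 8223 genes whose mean level reached 10 CPM, those most like the mean of the standardised H2-Aa, H2-Ab1, H2-Eb1 and Cd74 levels were Bod1 (r = 0.900), Rnf8-cmtr1 (r = 0.893), Tomm40l, Irf3 (each r = 0.886) and Cct3 (r = 0.883). Those most like Ciita were Asxl2 (r = 0.924), 4930594C11Rik (r = 0.898), Ubap2 (r = 0.892), Slc6a6 (r = 0.891) and L3mbtl3 (r = 0.890).

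In the authors' deposited table, H2-Oa had a linear ratio of 1.298 for ODN against control with the authors' p of 0.049, and H2-DMb1 a ratio of 0.868 with a p of 0.028. These were the 2 members with an authors' p under 0.05 in that comparison of the authors' deposited table, beside 13.7% of the tested genes. For ODN+IM156 against IM156, 3 members had an authors' p under 0.05 in the authors' deposited table, beside 16.2% of tested genes: H2-Aa (ratio 0.877, p of 0.027), H2-DMb1 (0.937, p of 0.02) and H2-Ob (0.932, p of 0.047). For Ciita the authors' deposited table gave a ratio of 1.268 for ODN+IM156 against IM156 with a p of 0.057. The authors' test is not given in the sources used here.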

How the data were processed

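RNA of splenic B cells was sequenced with the Lexogen QuantSeq 3′ kit, per the labels' protocols, which reads the 3′ end of each transcript, so levels were not divided by gene length. The deposited table holds raw counts per gene symbol for 12 libraries. Bowtie2, bedtools, edgeR and the GRCm38 (mm10) genome are named in the submitters' processing notes; versions, annotation and strand rule are not given in the sources used here. The authors also deposited a linear fold ratio and a p-value (a p_value column) for each comparison, whose test is not given; these were copied only where named. A further 12 columns (normalized values) and 4 columns (averages of groups) were left aside.

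The main test used edgeR 4.0.16 under R 4.3.3: filterByExpr (11857 of 23282 rows kept), TMM scaling, and a quasi-likelihood fit with 1 mean per group over all 12 libraries (8 residual degrees of freedom), tested on simulated data first. Tests were two-sided, adjusted by Benjamini-Hochberg over all tested genes, and called below 0.05. Libraries held 9650775 to 11532525 counts, with a median of 258 counts per tested gene and library. Intervals are at 95%, and those of the fit cover the spread between libraries. The labels do not say whether each library came from a separate animal, so part of this spread may be technical. ODN replicate 3, with 1 Xist count, cannot hold the same RNA as ODN replicates 1 and 2, with 9701 and 10759 Xist counts. Ratios of counts within a library were compared by exact permutation tests. The genes named were all 10 members, up to 8 genes past the test of each pathway list (values for up to 4), up to 3 genes of a marker list beside counts and sums, and the genes of closest pattern by correlation over the 12 libraries. Rfx5, Kat2b and the genes named as not called were chosen after their values were seen. One gene among the factors acting on Ciita is not reported here. The members and all gene lists were chosen with earlier results of these data known. Alternatives were DESeq2 1.42.0, other scalings, no filter, a robust spread, fits to the compared groups alone, a replicate block and leaving out each library.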

Additional observations from a re-analysis of the deposited data

How the results depend on the processing

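Of 1302 values recomputed under the alternatives, 1218 kept their direction and side of the threshold, or for counts of members called stayed within 1.5 times. For ratios the threshold was a permutation p of 0.05. A test of 3 libraries against 3 cannot reach that threshold, so there only the sign was checked. For ODN against control the count of members called was 1, H2-Oa, and became 2 (with H2-DMb1) with DESeq2, 0 in a fit to the compared groups alone, and 0 to 2 when 1 library was left out (0 without control replicate 2 or 3 or ODN replicate 2). For the average ODN effect it was 1 and became 2 with DESeq2 and 0 to 2 with 1 library left out (0 without ODN+IM156 replicate 2). It was 0 for ODN+IM156 against IM156 and became 1, Ciita, in a fit to the compared groups alone. The log2 ratio of H2-DMa to H2-Oa had the opposite sign to that of summed DM to DO: -0.12 for the average ODN effect, -0.050 for IM156 against control, -0.17 for ODN against control, -0.11 for ODN+IM156 against control and -0.063 for ODN+IM156 against IM156; the cause was not tested. With 1 library left out, the summed ratio ranged from -0.033 to 0.077 for IM156 against control, -0.030 to 0.11 for ODN against control and -0.033 to 0.097 for ODN+IM156 against ODN. No pairing of libraries by replicate number was seen: deviations from group means correlated at -0.10 to 0.079 in 18 same-numbered pairs, 0 of them above 0.1. Differently numbered pairs were not set beside these, so a weak pairing was not tested. With the replicate block 1 member was called for ODN against control and all genes gave 803 calls higher and 352 lower, and no call of a member changed; H2-DMb2 for IM156 against control turned to 0.0034. With library totals as the only scaling, small uncalled changes turned sign: 0.028 for Cd74, 0.0075 for H2-Ob (both ODN+IM156 against ODN), 0.018 for H2-DMb2 (IM156 against control) and -0.017 for H2-Eb1 (ODN against control). Other uncalled changes crossed 0 when 1 library was left out. Ranges were, for IM156 against control, -0.036 to 0.12 for Cd74, -0.016 to 0.049 for H2-Ab1, -0.12 to 0.15 for H2-DMa, -0.12 to 0.18 for H2-DMb2 and -0.083 to 0.060 for H2-Eb1. Ranges were, for the interaction, -0.14 to 0.016 for Cd74, -0.024 to 0.083 for H2-Ab1, -0.055 to 0.088 for H2-Eb1 and -0.071 to 0.058 for H2-Ob. Ranges were, for ODN against control, -0.11 to 0.040 for Cd74 and -0.0085 to 0.19 for H2-Aa. Ranges were, for ODN+IM156 against control, -0.13 to 0.020 for Cd74, -0.023 to 0.24 for H2-DMa and -0.0045 to 0.46 for H2-DMb2. Ranges were, for ODN+IM156 against ODN, -0.067 to 0.017 for Cd74, -0.018 to 0.093 for H2-Ab1, -0.042 to 0.042 for H2-Eb1 and -0.12 to 0.0081 for H2-Ob. Ranges were, for the average ODN effect, -0.099 to 0.0015 for H2-Aa and -0.18 to 0.051 for H2-DMb2. Ranges were, for ODN+IM156 against IM156, -0.0014 to 0.41 for H2-DMb2. Over all genes, ODN+IM156 against ODN had 6 calls higher and 2 lower, but 142 and 241 with DESeq2, 42 and 82 with a robust spread, 219 and 445 with no filter and 267 and 527 without ODN replicate 3, the library with 1 Xist count. The interaction had 0, but 98 higher and 162 lower without ODN replicate 3, 37 and 151 with DESeq2 and 104 and 172 with no filter. ODN against control fell to 490 higher and 108 lower, and ODN+IM156 against IM156 reached 590 higher and 302 lower, in fits to the compared groups alone. Depth limits H2-DMb2 most, at 54 to 128 counts per library.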
